A study of Arabidopsis thaliana with 6 samples.

Results

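Oil breakdown was followed through the transcripts of 10 Arabidopsis genes, of which 9 are described one by one, namely the lipases SDP1 (AT5G04040) and SDP1L (AT3G57140), the synthetases LACS6 (AT3G05970) and LACS7 (AT5G27600), the oxidases ACX1 (AT4G16760) and ACX2 (AT5G65110), the multifunctional proteins MFP2 (AT3G06860) and AIM1 (AT4G29010), and the thiolase KAT2 (AT2G33150). They were chosen by locus, out of 27981 genes on the array, and are measured by 15 of the 35986 features, 1 feature for each gene model. Transcripts were measured on 6 Affymetrix arrays, with RNA from seeds of the accession Col-0 that had germinated as far as the protrusion of the radicle. In 1 group, seeds were kept for 72 h in polyethylene glycol (PEG) at -2.5 MPa, in the dark at 20 °C (3 arrays), and the other group was frozen without treatment after germination at 22 °C under white light (3 arrays). Before germination, seeds of both groups had spent 72 h in the cold (4 °C). PEG withholds water from the seed, and the treatment re-establishes desiccation tolerance (DT). Arrays measure transcripts, not oil or enzyme activity. The comparison therefore asks what happens to transcripts of oil breakdown genes in seeds that are led back towards a tolerant state. The PEG seeds thus differ from untreated seeds in water status, light, age and temperature, which cannot be told apart. Each array holds a separate pool of whole seeds, and in such bulk RNA fewer cells of a type and less RNA per cell cannot be told apart.

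Arabidopsis seeds store carbon and energy as triacylglycerol in oil bodies. After germination, lipases release from this oil the fatty acids, which enter the peroxisome, where acyl-CoA synthetases activate them. Each turn of beta-oxidation then takes an oxidase, a multifunctional protein (hydratase and dehydrogenase in 1 chain) and a thiolase, and shortens the chain by an acetyl unit. The acetyl-CoA feeds the glyoxylate cycle and sugar synthesis, which carry the seedling until it can photosynthesize.

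Values are log2 expression levels. A floor of 4 was applied, limma compared both groups over all features, and p was adjusted by the Benjamini-Hochberg method. To be called, a gene needed a log2 fold change of at least 2 in either direction and an adjusted p of at most 0.01. The values of both limits follow the study's methods for its ABA arrays, where no adjustment of p is given, and the adjustment was added here. Since that fold limit is high, genes that met the limit on p at any fold are counted as well, and "rose" and "fell" refer to that limit. A gene with several features is given by the feature with the highest mean. The members lay between 5.99 and 10.65 on all arrays, so that the floor touched none of them. Within groups, arrays correlated at 0.982 to 0.992 over all features, with untreated replicate 2 at 0.982 and 0.983 to its group and PEG replicate 1 at 0.986 and 0.987 to its own.

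After PEG, transcripts of 6 of the 10 genes fell, among them ACX1, ACX2, LACS7, KAT2 and MFP2, and none rose. Among all genes, 8.09 % fell and 6.59 % rose, and among the 16058 genes above 4 on at least 3 arrays 14.1 % fell. With 1 array left out, 4 of the 10 genes fell without PEG replicate 1, and 2 fell without PEG replicates 2 or 3 or untreated replicates 1, 2 or 3. The median log2 fold change of the members was -0.46 (range -1.14 to 0.59), against 0 over all genes and -0.01 over those 16058. No member was called (0 of 10, limma), against 2.72 % of all genes, while 8 of 10 had an unadjusted p under 0.05. The share of all genes under this unadjusted limit was not taken, so the 8 have no background here. With the fold limit lowered to 1, ACX1 was the one member to pass, against 5.74 % of all genes that were lower by this rule. The PEG arrays all lay below the untreated arrays in 7 members and above them in 2, against 20.2 % and 18.5 % of all genes. The shares called, past the fold limit of 1 and without overlap were taken over all genes, not over the 16058. Genes under 4 on all arrays tie at the floor and can neither be called nor separate, so each of these shares is higher among the 16058.

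Seed storage markers moved with the groups, and endosperm markers were split. Of 5 seed storage markers, 4 (CRA1, CRU3, OLEO1 and OLEO2) were called higher after PEG, against 1.08 % of all genes. SESA1 lay at 3.23 to 4.79 on the PEG arrays and 4.13 to 4.49 on the untreated arrays. The summed level of the 5 markers was 12.96 to 13.33 after PEG and 7.04 to 7.66 in untreated seeds (log2). Of 4 endosperm markers, MAN7 was called higher (2.88, limma adjusted p = 6.0e-04), and EPR1 (-0.98), MAN6 (-0.64) and EXPA2 (0.47) missed the limit, so that the list held 2 lower and 2 higher genes with a median of -0.09. Their summed level was 9.96 to 10.16 after PEG and 9.38 to 9.51 in untreated seeds, while that of the 10 pathway genes was 11.81 to 11.90 after PEG and 12.40 to 12.51 in untreated seeds. The paper, citing earlier work, lists seed storage genes among those that PEG incubation raises. In the seed storage markers, a response to PEG and a change of tissue composition thus cannot be told apart. The part of tissue composition in the lower levels of the pathway genes was not tested.

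**Figure D1:**
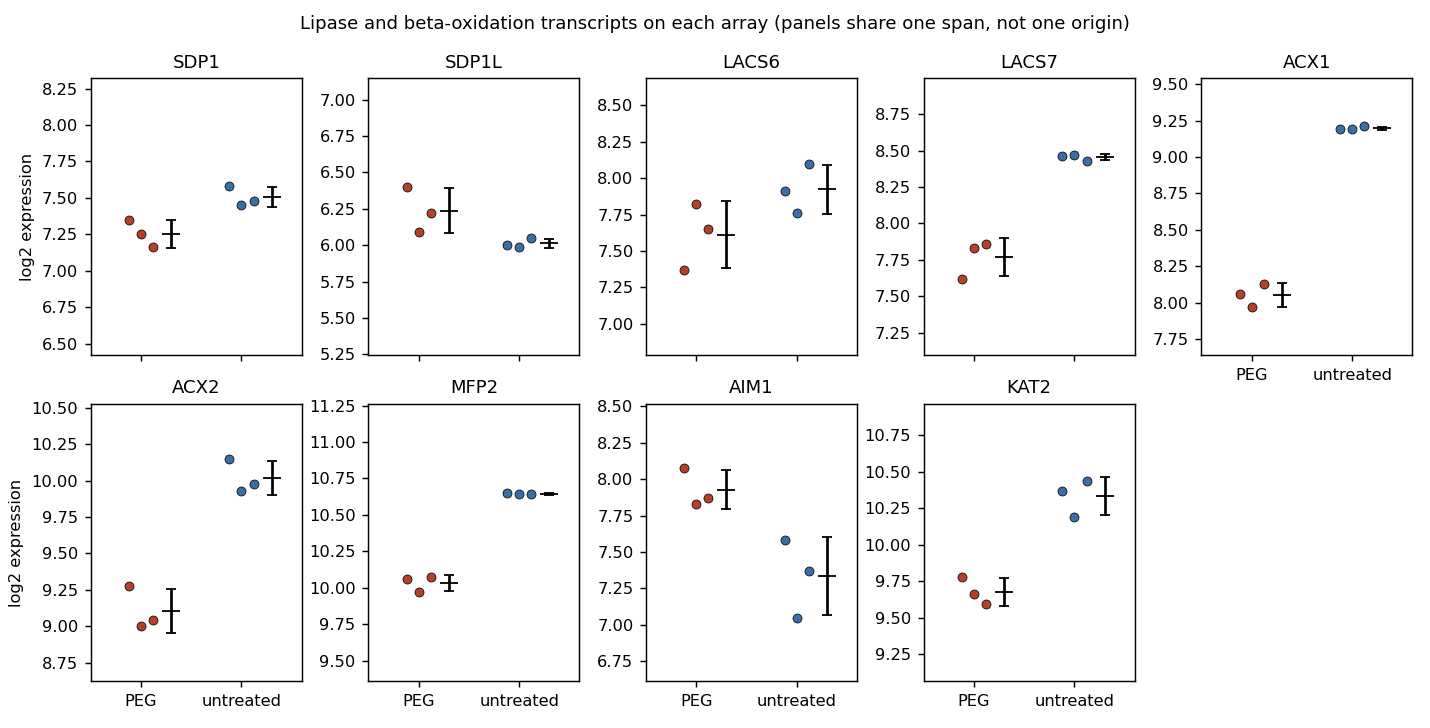
Log2 expression of the 9 described genes on the 3 PEG arrays (red, left) and the 3 untreated arrays (blue, right), with mean and SD beside the points; each panel spans the same number of log2 units but starts at its own level. LACS6 is the one gene whose groups overlap, and SDP1L and AIM1 are the ones with PEG arrays on the upper side.

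Neither lipase gene at the head of the pathway met the limit. SDP1, the patatin-type lipase that starts the breakdown of stored oil in seedlings, had 7.35, 7.25 and 7.16 on the PEG arrays, against 7.58, 7.45 and 7.48 on the untreated arrays. All PEG values lay lower, but the change of -0.25 (SE 0.06) missed the limit (limma adjusted p = 0.049). SDP1L, its close relative, had 6.40, 6.09 and 6.22 after PEG and 6.00, 5.99 and 6.05 in untreated seeds, with all PEG values on the upper side. Its log2 fold change was 0.22 (SE 0.09, limma adjusted p = 0.15). The other feature of SDP1L had 0.35 (adjusted p = 0.014) and missed the limit as well.

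Of the genes for activation, LACS7 fell and LACS6 missed the limit. LACS7, a peroxisomal long-chain acyl-CoA synthetase, had 7.62, 7.83 and 7.86 after PEG and 8.46, 8.47 and 8.43 in untreated seeds. This is a fall to 62.2 % (log2 fold change -0.68, SE 0.08, limma adjusted p = 0.0051), with a gap of 0.57 between the groups. LACS6, the second peroxisomal synthetase, had 7.37, 7.82 and 7.65 after PEG and 7.91, 7.76 and 8.10 in untreated seeds. Its groups overlapped and its change of -0.31 (SE 0.16) did not pass (limma adjusted p = 0.26).

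The acyl-CoA oxidases, which catalyse the first reaction of each turn, had the largest falls among the members. ACX1, which acts on medium to long chains and also serves in jasmonate synthesis, had 8.06, 7.97 and 8.13 after PEG, against 9.19, 9.19 and 9.21 in untreated seeds. The groups lay 1.06 apart, while the untreated arrays differed by almost nothing. ACX1 thus fell to 45.2 % of the untreated level (log2 fold change -1.14, SE 0.05, limma adjusted p = 5.2e-04), and its other feature had -1.11 (adjusted p = 9.0e-04). ACX2, the long-chain oxidase, had 9.28, 9.00 and 9.04 after PEG and 10.15, 9.93 and 9.98 in untreated seeds. It fell to 52.9 % (log2 fold change -0.92, SE 0.11, limma adjusted p = 0.0059). The other feature of ACX2 had -0.80 but varied more and missed the limit (adjusted p = 0.037). Over all genes, 6.30 % had a change below that of ACX1 and 9.02 % one below that of ACX2.

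Of the multifunctional proteins, which carry out the hydratase and dehydrogenase reactions, MFP2 fell and AIM1 lay higher without meeting the limit. MFP2, the form known from oil breakdown in seedlings, had 10.06, 9.97 and 10.07 after PEG, against 10.65, 10.64 and 10.64 in untreated seeds. It fell by 0.61 on the log2 scale (SE 0.03, limma adjusted p = 8.3e-04), to 65.5 %. AIM1, named for its mutant's abnormal inflorescence, had 8.08, 7.83 and 7.87 after PEG and 7.58, 7.05 and 7.37 in untreated seeds. All its PEG values lay higher, but untreated replicate 2 was low, and a change of 0.59 (SE 0.17) did not pass (limma adjusted p = 0.067). With the features of low value removed, the adjusted p of AIM1 was 0.0107, and it was 8.9e-03 when untreated replicate 1 was also left out and 0.023 to 0.041 without any of the other 5 arrays. The gene models of AIM1 and its neighbour AT4G29000 overlap by 23 bases in the gene table. AT4G29000 changed by 1.04 on the log2 scale without meeting the limit (limma adjusted p = 0.040), and its part in the value of AIM1 was not tested.

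KAT2 (PKT3 in the gene table), the thiolase that releases acetyl-CoA and the main such enzyme of seedlings, had 9.78, 9.66 and 9.59 after PEG. In untreated seeds it had 10.37, 10.19 and 10.44, all above the PEG arrays. KAT2 fell to 63.5 % (log2 fold change -0.66, SE 0.09, limma adjusted p = 0.0085).

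**Figure D2:**
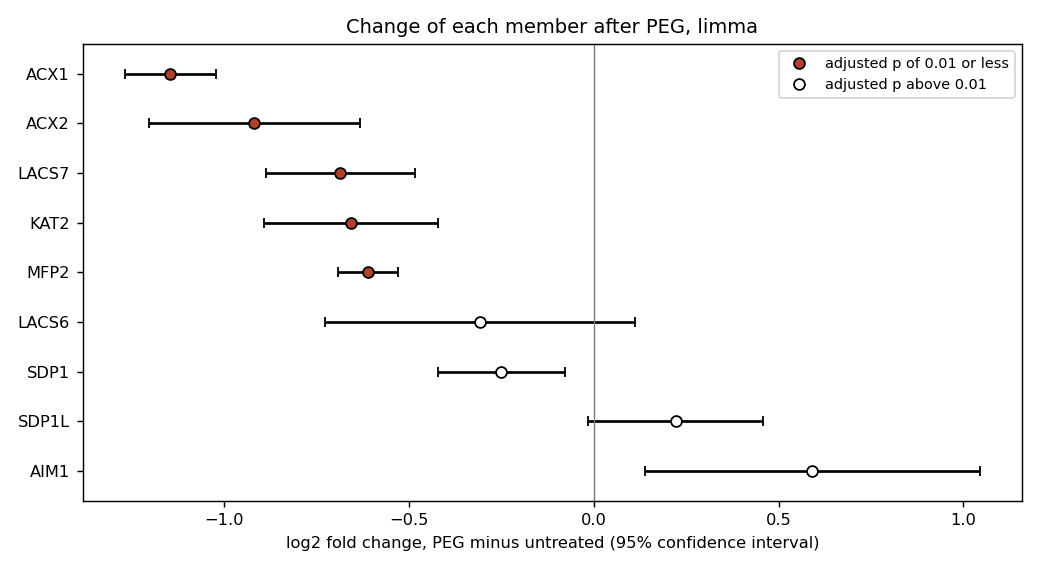
Log2 fold change (PEG minus untreated, horizontal axis) of the 9 described genes with the 95 % confidence interval of limma, ordered from the lowest to the highest; filled points met the limit on adjusted p. In the main fit shown, the interval of ACX1 (-1.27 to -1.02) lies below those of LACS7, KAT2 and MFP2, whereas the intervals of LACS6 and SDP1L include 0.

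The fitted falls differed in size, but no test compared members with each other, other than the isozyme pairs below. The intervals given here are those of the main fit and depend on the setting. The SE of ACX1 was 0.05 in the main fit and 0.12 with the features of low value removed. That of LACS7 was 0.08 and 0.12. Whether the intervals separate under other settings was not tested. The 95 % confidence interval of the log2 fold change was -1.27 to -1.02 for ACX1 and -1.20 to -0.63 for ACX2, so that these neighbours in the order overlap. LACS7 (-0.89 to -0.48), KAT2 (-0.89 to -0.42) and MFP2 (-0.69 to -0.53) cannot be put in an order among themselves. SDP1 had an interval of -0.42 to -0.08. LACS6 spans -0.73 to 0.11 and SDP1L -0.02 to 0.46. AIM1 has the widest interval on the upper side, 0.14 to 1.04.

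Of the described genes, only ACX1 and MFP2 met the limit on p whichever array was left out, with adjusted p of 0.0020 to 0.0049 and 2.9e-04 to 0.0070 (limma). LACS7 and ACX2 met it without PEG replicate 1 (0.0019 and 0.0095). They missed it without untreated replicates 1, 2 or 3 or PEG replicates 2 or 3, with 0.016 to 0.027 for LACS7 and 0.020 to 0.029 for ACX2. KAT2 (0.012 to 0.040) missed it whichever array was left out. Features at or under 4 on all arrays, 12085 in number, take part in the variance that limma shares among features. With low features removed, ACX1, ACX2, LACS7, MFP2 and KAT2 met the limit in each of the 6 fits that left out an array. In these fits, 7920 to 9370 of all 22468 features kept met the limit as well. The highest adjusted p was then 5.5e-04 for ACX1, 0.0027 for ACX2, 0.0059 for LACS7, 0.0082 for MFP2 and 0.0099 for KAT2. The combined setting was added once the values had been seen. Among the listed genes, its results were taken for the members only, so the accompanying genes below have no such values.

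Several steps of the pathway have isozymes, and their changes can be set against each other through the difference of 2 genes on the same array. The size of such a difference depends on the probes, and only its shift between the groups is compared. AIM1 minus MFP2 was -1.98, -2.14 and -2.20 on the PEG arrays, against -3.06, -3.60 and -3.26 on the untreated arrays. All PEG arrays lay higher, with means of -2.11 ± 0.11 after PEG and -3.31 ± 0.27 in untreated seeds (SD, n = 3 each), higher by 1.20 after PEG (exact permutation, two-sided p = 0.1, adjusted p = 0.17). That p is the smallest one possible with groups of 3, so no pair could pass, and adjustment was over the 5 pairs compared.

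For the lipases, SDP1L minus SDP1 was -1.02 ± 0.12 after PEG and -1.49 ± 0.08 in untreated seeds, a shift of 0.47 with no overlap between the groups (exact p = 0.1, adjusted p = 0.17). The synthetases shifted by -0.38, with LACS7 minus LACS6 at 0.16 ± 0.13 after PEG and 0.53 ± 0.19 in untreated seeds, again without overlap (exact p = 0.1, adjusted p = 0.17). For the oxidases, ACX2 minus ACX1 was 1.05 ± 0.16 after PEG and 0.82 ± 0.12 in untreated seeds. Here the groups overlapped, with a shift of 0.23 (exact p = 0.2, adjusted p = 0.25). KAT1 (PKT4 in the gene table) is a second thiolase, and KAT2 minus KAT1 was 3.65 ± 0.35 after PEG and 3.62 ± 0.17 in untreated seeds (exact p = 0.8, adjusted p = 0.8). Their shift of 0.035 was smaller than the spread in either group, and its sign changed after quantile normalization (-0.011).

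**Figure D3:**
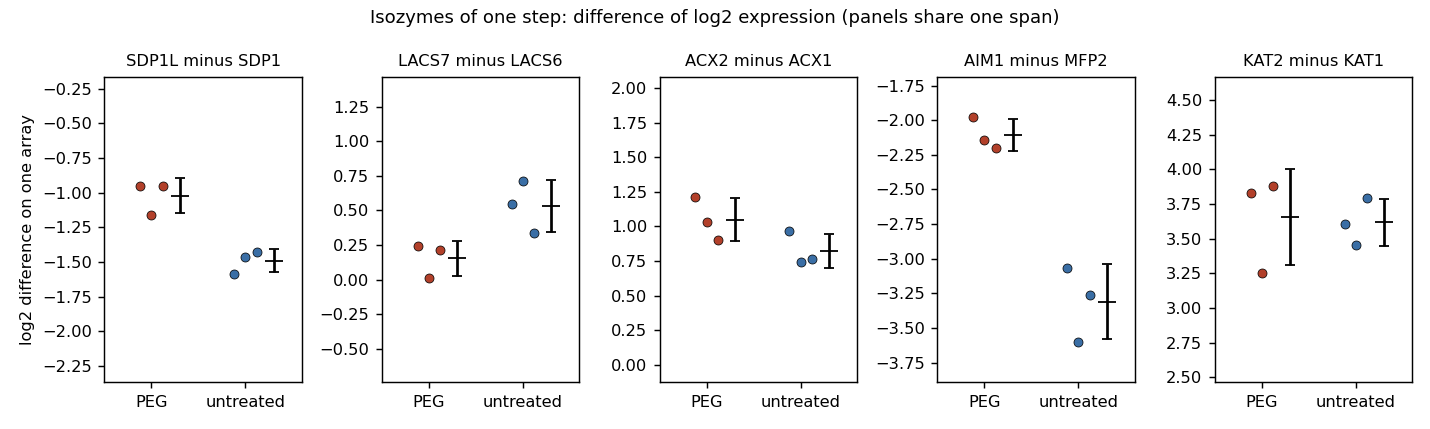
Difference of the log2 expression of 2 isozymes on the same array, for 3 PEG arrays (red, left) and 3 untreated arrays (blue, right), with mean and SD; panels span the same number of log2 units. The groups separate for the lipases, synthetases and multifunctional proteins, by 1.20 between the means for AIM1 minus MFP2, and overlap for the oxidases and thiolases.

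The remaining core enzymes of beta-oxidation were examined as a list of 6 genes (ACX3 to ACX6, KAT1 and KAT5). Here 2 fell, 4 missed the limit on p (background of 8.09 % lower), and the median was -0.35. ACX3, the medium-chain oxidase, had 6.90, 7.01 and 6.98 after PEG and 8.44, 8.34 and 8.30 in untreated seeds, a change of -1.39 (SE 0.05, limma adjusted p = 4.2e-04). ACX4, the short-chain oxidase, had 7.29, 7.49 and 7.24 after PEG and 8.78, 8.78 and 8.71 in untreated seeds, with -1.41 (SE 0.08, adjusted p = 9.6e-04). ACX1 to ACX4, which together cover long, medium and short chains, thus all fell, and the intervals of ACX3 (-1.53 to -1.26) and ACX4 (-1.62 to -1.21) overlap that of ACX1. ACX5, a close copy of ACX1, had 5.30, 5.16 and 5.27 after PEG and 4.77, 4.83 and 4.58 in untreated seeds (0.52, adjusted p = 0.014). Probes of near copies can share signal, so that ACX1 and ACX5 may not be fully separate measurements. KAT1 had -0.69 (SE 0.20, adjusted p = 0.068), and ACX6 and KAT5 lay at or under 4 on all arrays.

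Among 9 auxiliary enzymes, which handle double bonds and branched or indole substrates in the peroxisome, 2 fell, 1 rose and 6 missed the limit, with a median of -0.23 (14.1 % lower and 11.5 % higher among all genes above 4 on at least 3 arrays). The enoyl-CoA isomerase HCD1 (AT4G14440) had 7.18, 7.01 and 7.39 after PEG, against 8.42, 8.60 and 8.16 in untreated seeds (-1.20, SE 0.16, limma adjusted p = 0.0085). It missed the limit whichever array was left out (0.018 to 0.040). SDRB (AT3G12800), annotated as a short-chain dehydrogenase-reductase, had 7.08, 7.11 and 7.03 after PEG, against 8.12, 8.26 and 8.32 in untreated seeds (-1.16, SE 0.06, adjusted p = 9.0e-04). IBR3 (AT3G06810), known from the conversion of indole-3-butyric acid to auxin, rose, with 7.25, 7.35 and 7.36 after PEG and 6.43, 6.39 and 6.43 in untreated seeds (0.91, SE 0.04, adjusted p = 5.3e-04).

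Of 5 genes that supply cofactors, 2 fell and 3 missed the limit (median -0.68, against the same 14.1 % lower). The NAD carrier PXN (AT2G39970) had 7.37, 7.65 and 7.61 after PEG and 8.59, 8.39 and 8.59 in untreated seeds (-0.98, SE 0.11, limma adjusted p = 0.0050). PMDH2 (AT5G09660), a peroxisomal malate dehydrogenase that reoxidizes NADH, had 6.25, 6.81 and 6.66 after PEG and 8.04, 8.36 and 7.99 in untreated seeds (-1.55, SE 0.20, adjusted p = 0.0074). Both missed it whichever array was left out, with 0.012 to 0.026 for PXN and 0.016 to 0.032 for PMDH2. A pair of loci that had been listed beside the lipases, AT3G14360 and AT4G24160, has no name in the gene table. AT3G14360 had 8.01, 7.50 and 7.42 after PEG and 4.98, 5.28 and 5.42 in untreated seeds and was called (2.42, SE 0.22, adjusted p = 0.0031). It kept the call without PEG replicate 1 (adjusted p = 0.0073) and lost it without untreated replicates 1, 2 or 3 or PEG replicates 2 or 3 (0.014 to 0.017). AT4G24160 had -1.04 and missed the limit (limma adjusted p = 0.017), whereas its other feature had -1.02 and met it (adjusted p = 0.0085). The median over both loci was 0.69.

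In the glyoxylate cycle and gluconeogenesis, downstream of beta-oxidation, 2 of 5 genes fell (median -0.21, against 14.1 % lower). CSY2 (AT3G58750), a peroxisomal citrate synthase, had 6.33, 6.26 and 6.05 after PEG and 7.62, 7.41 and 7.68 in untreated seeds (-1.36, SE 0.11, limma adjusted p = 0.0027). It met the limit without untreated replicate 2 (0.0078) and missed it without any other array (0.011 to 0.017). PCK1 (AT4G37870), which makes phosphoenolpyruvate for sugar synthesis, had 10.63, 10.57 and 10.60 after PEG and 11.06, 11.10 and 11.03 in untreated seeds (-0.46, SE 0.03, adjusted p = 9.7e-04). The marker enzymes of the cycle missed the limit, with 0.37 (adjusted p = 0.25) for isocitrate lyase (ICL) and 0.11 (adjusted p = 0.23) for malate synthase (MLS), both named after their values were seen.

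Of 21 peroxin genes, which build the organelle, 4 fell, 3 rose and 14 missed the limit, with a median of 0.07. These counts lie near the shares among all genes above 4 on at least 3 arrays, 14.1 % lower and 11.5 % higher. PEX11E (AT3G61070), which takes part in peroxisome proliferation, fell to 26.9 %, with 8.25, 8.10 and 7.98 after PEG and 9.88, 10.12 and 10.02 in untreated seeds (-1.89, SE 0.10, limma adjusted p = 9.1e-04). PEX14 (AT5G62810), a docking protein for import into the peroxisome, changed by -0.94 (SE 0.07, adjusted p = 0.0023). It met the limit without PEG replicate 1 (0.0041) and missed it without any other array (0.011 to 0.015). The genes for PEX19, a receptor for peroxisomal membrane proteins, rose instead. PEX19-2 (AT5G17550) had 9.98, 10.08 and 9.97 after PEG and 8.43, 8.17 and 8.34 in untreated seeds (1.70, SE 0.08, adjusted p = 7.4e-04), and PEX19-1 (AT3G03490) changed by 1.01 (SE 0.12, adjusted p = 0.0068). PEX19-1 met the limit without untreated replicate 1 (0.0079) and missed it without any other array (0.024 to 0.032). PEX11A, named after its values were seen, fell as well (-0.62). In the gene table, PEX11E overlaps PP2-A13 by 489 bases, PEX14 overlaps AT5G62820 by 63, PEX11A overlaps AT1G47740 by 42 and IBR3 overlaps BRCC36B by 29. AT3G14360 overlaps the long non-coding RNA AT3G02925, which has no feature on the array, by 324 bases and RTFL10 by 7, and the part of these neighbours was not tested.

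**Figure D4:**
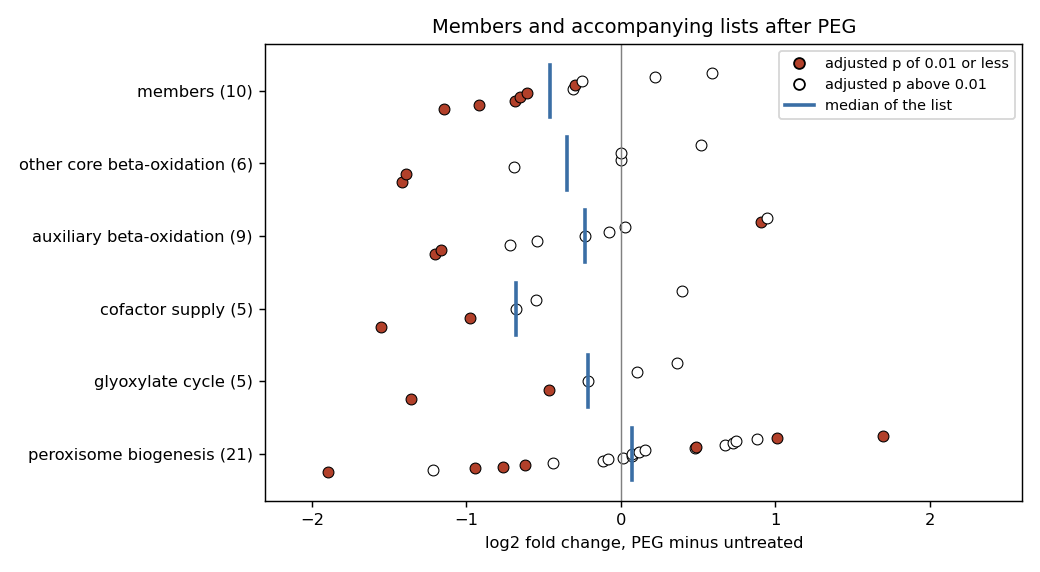
Log2 fold change (PEG minus untreated) of each member and of the genes of 5 accompanying lists, with list sizes in brackets; filled points met the limit on adjusted p, and the bar marks the median of a list. Medians are -0.46 for the members, -0.35 for the other core enzymes, -0.23 for auxiliary enzymes, -0.68 for cofactor supply, -0.21 for the glyoxylate cycle and 0.07 for peroxins. The list of AT3G14360 (2.42, called) and AT4G24160 (-1.04), with a median of 0.69, is not shown.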

How the data were processed

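Deposited values were log2 expression levels of 35986 features, 1 for each gene model, on 6 arrays, which the authors had normalized with RMA per the labels. The study's methods give RMA with a custom probe definition for its ABA arrays, and no version is given in the sources used here. Array medians were 4.81 to 4.97, and 41.0 to 41.6 % of the features on PEG arrays and 38.2 to 39.8 % on untreated arrays lay under 4 and were set to 4. No value was duplicated between arrays beyond 10 features. PEG was tested against untreated by lmFit and eBayes of limma 3.58.1 (R 4.3.3) without covariates, a step checked on simulated data, and isozymes by exact permutation in scipy 1.17.1 under Python 3.11.15. The number of arrays limits the precision.

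The 10 members, the accompanying lists and the tests were chosen with earlier results of these data known. Some genes, 1 member among them, enter the counts and medians but are not reported here by name. Named genes are the other members and, in each accompanying list, the called genes and up to 4 others with the largest change among those with adjusted p of 0.01 or less. Other names are marked in the text or serve the pairs, markers and overlaps. ACX5, ACX6, KAT5 and AT4G24160, which complete their lists, were also named after their values were seen. All 67 listed loci matched the TAIR10.1 gene table, used for names and overlaps only. Alternatives were no floor, a floor of 5, 2 scalings of the arrays, a filter on low values (above 4 on at least 3 arrays), another prior, an ordinary linear model, other limits, the mean of a gene's features, a replicate block and the omission of each array in turn.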

Additional observations from a re-analysis of the deposited data

How the results depend on the processing

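The median change of the members was -0.50 to -0.38 and no member changed sign under any alternative run. Members that met the limit on p numbered 6, between 4 and 6 under other floors, scalings, filter, prior and the mean of features, 3 with the ordinary linear model, 7 at an adjusted p of 0.05, and 2 to 4 with 1 array left out. All of these were lower after PEG, except that the trended and robust prior gave 5 lower and 1 higher, AIM1 (adjusted p = 3.3e-04). With the fold limit at 1, 1 member was called, and 10 of the 48 accompanying genes, against 1 at the limit of 2. Of all genes, 9.78 % were called at the limit of 1 and 2.72 % at the limit of 2. Of these 48 genes, 17 met the limit on p, 29 with the filter, 29 with the trended and robust prior, 30 at an adjusted p of 0.05, and 7 to 9 with 1 array left out. In the main fit, 14.7 % of all genes and 25.6 % of those above 4 on at least 3 arrays met it. No share of all genes was taken for the ordinary linear model or the adjusted p of 0.05, so those counts have no background here. The filter passed 10346 of 22468 features and the trended and robust prior 11435 of 35986, so the count over all features rose as well. The cause was not tested. The shift of KAT2 against KAT1 was -0.011 after quantile normalization and -0.076 to 0.23 with 1 array left out.

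The replicate numbers do not pair the arrays: deviations from group means correlated at -0.09, -0.02 and 0.04 between arrays of the same number. With the replicate number as a block (limma), 0 members and 0 of 48 accompanying genes met the limit on p, and 0 accompanying genes were called, while 8 members and 31 accompanying genes had an unadjusted p under 0.05. No share of all genes was taken for the unadjusted limit. Of all features, 73 met the limit with the block, against 5649 without it. ACX2 and ACX1 had adjusted p of 0.015 and 0.021 with the block.

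Over all features, the number past the limit on p (5649) was 9624 without a floor and 11435 with the trended and robust prior. It was 1880 to 2965 with 1 array left out. The filter kept 22468 features, and 10346 of these passed. The number called (990) was 1684 without a floor, 658 with a floor of 5 and 589 to 736 with 1 array left out. The number of arrays, 3 a group, limits the precision.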
